A study of Homo sapiens with 10 samples.

Results

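Messenger RNA levels of 32 genes of homologous recombination and the Fanconi anaemia pathway were followed through heat shock and YTHDC1 knockdown in U2OS cells. The genes were taken by name, as the rows whose Ensembl identifiers pair with a fixed list of symbols, and all 32 were found among the 63187 genes of the count table and passed the filter on low counts. U2OS is a human osteosarcoma line that maintains its telomeres by a recombination-based route. The 3 groups were heat-shocked cells given the YTHDC1 knockdown reagent (labelled siYTHDC1 or shYTHDC1), heat-shocked cells given the control reagent (siCtrl or shCtrl) and unheated cells given the control reagent, with 2 libraries each, called knockdown cells, heated controls and unheated controls here. YTHDC1 is a nuclear protein that binds N6-methyladenosine in messenger RNA. Every knockdown library was heat shocked, so the effect of the knockdown in unheated cells is not measured. The labels give neither the temperature, length and recovery of the heat shock nor the time between reagent and harvest, and nothing says that the 2 libraries of each group were grown separately. The p-values therefore reflect the spread between these libraries alone, which may be technical. The 4 methylated RNA immunoprecipitation samples of the study were not analysed here, and RNA methylation is not measured below.

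Homologous recombination repairs breaks through both strands of DNA by copying the sister chromatid, and it works mainly in S and G2 phase. Nucleases trim the broken end, BRCA1 with BARD1 favours this trimming and, through PALB2, brings BRCA2, which prepares the exposed strand to invade the sister copy. The Fanconi anaemia pathway removes crosslinks between DNA strands: a core complex attaches ubiquitin to the FANCD2 and FANCI pair, which then guides nucleases, and the resulting break is passed to recombination.

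The libraries held between 13252370 and 15500743 counts. Levels are CPM, library-scaled counts corrected for composition. Log2 fold changes carry their standard error (SE), and a gene is called at an adjusted p under 0.05 by edgeR's quasi-likelihood test fitted to all 17290 genes that passed the filter. YTHDC1 itself stood at 120.9 and 117.8 CPM in knockdown cells, 267.7 and 258.0 CPM in heated controls and 212.6 and 224.5 CPM in unheated controls, so the labels and the targeted gene go together (log2 fold change in knockdown against heated controls -1.14 ± 0.05). Vimentin (VIM) and the collagen gene COL1A1, mesenchymal markers, were at 1129 CPM or more in every library, whereas TWIST1 of the same list of 14 had 0 counts in all 6 and the bone enzyme ALPL stayed between 1.74 and 3.34 CPM. These markers also moved with the knockdown: of 13 tested 5 were called higher and 6 lower than in heated controls, with CDH2 at 0.88 ± 0.05, S100A4 at -1.47 ± 0.09, SNAI2 at -1.03 ± 0.12 and VIM at -0.48 ± 0.04 (unrounded -0.475), and in heat shock 1 was called higher and 3 lower. Of 8 epithelial markers 5 were tested and 4 rose in knockdown cells against heated controls, with a median log2 fold change of 1.84 over the 5. EPCAM was at 1.90 ± 0.14 and KRT14 at 1.85 ± 0.18, and the lowest of the 5 was at -0.16. The list summed to 98.4 and 92.3 CPM in knockdown cells, 71.1 and 79.5 CPM in heated controls and 57.7 and 54.5 CPM in unheated controls. Of 9 blood cell markers 3 were at 0 counts in all 6 libraries, CD3E and HBB among them, and the list summed to 4.85 and 7.31 CPM in knockdown cells, 19.0 and 23.1 CPM in heated controls and 15.5 and 16.3 CPM in unheated controls. The part of these markers in the results below was not tested.

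The 32 genes did not move as a block. In heat shock 12 fell, 3 rose and 17 were not called, where 23.3% of all tested genes were called lower and 20.6% higher, 43.9% in either direction. Their median log2 fold change was -0.13, against -0.03 over all tested genes. In knockdown cells against heated controls 10 rose, 8 fell and 14 were not called, a share of 56.2%, close to the 54.5% of all tested genes (27.4% higher and 27.2% lower). The median there was 0.04, against 0.00 over all tested genes (unrounded -0.0042). Most called changes were small: in heat shock FANCE alone passed 2-fold among the members, and in knockdown cells 0 members did, where 5.82% of all genes were at least 2-fold higher and 3.5% at least 2-fold lower in heat shock, and 6.12% higher and 6.59% lower in the knockdown. What stands in the data is therefore which genes moved, and these are taken in the order of their roles.

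**Figure D1:**
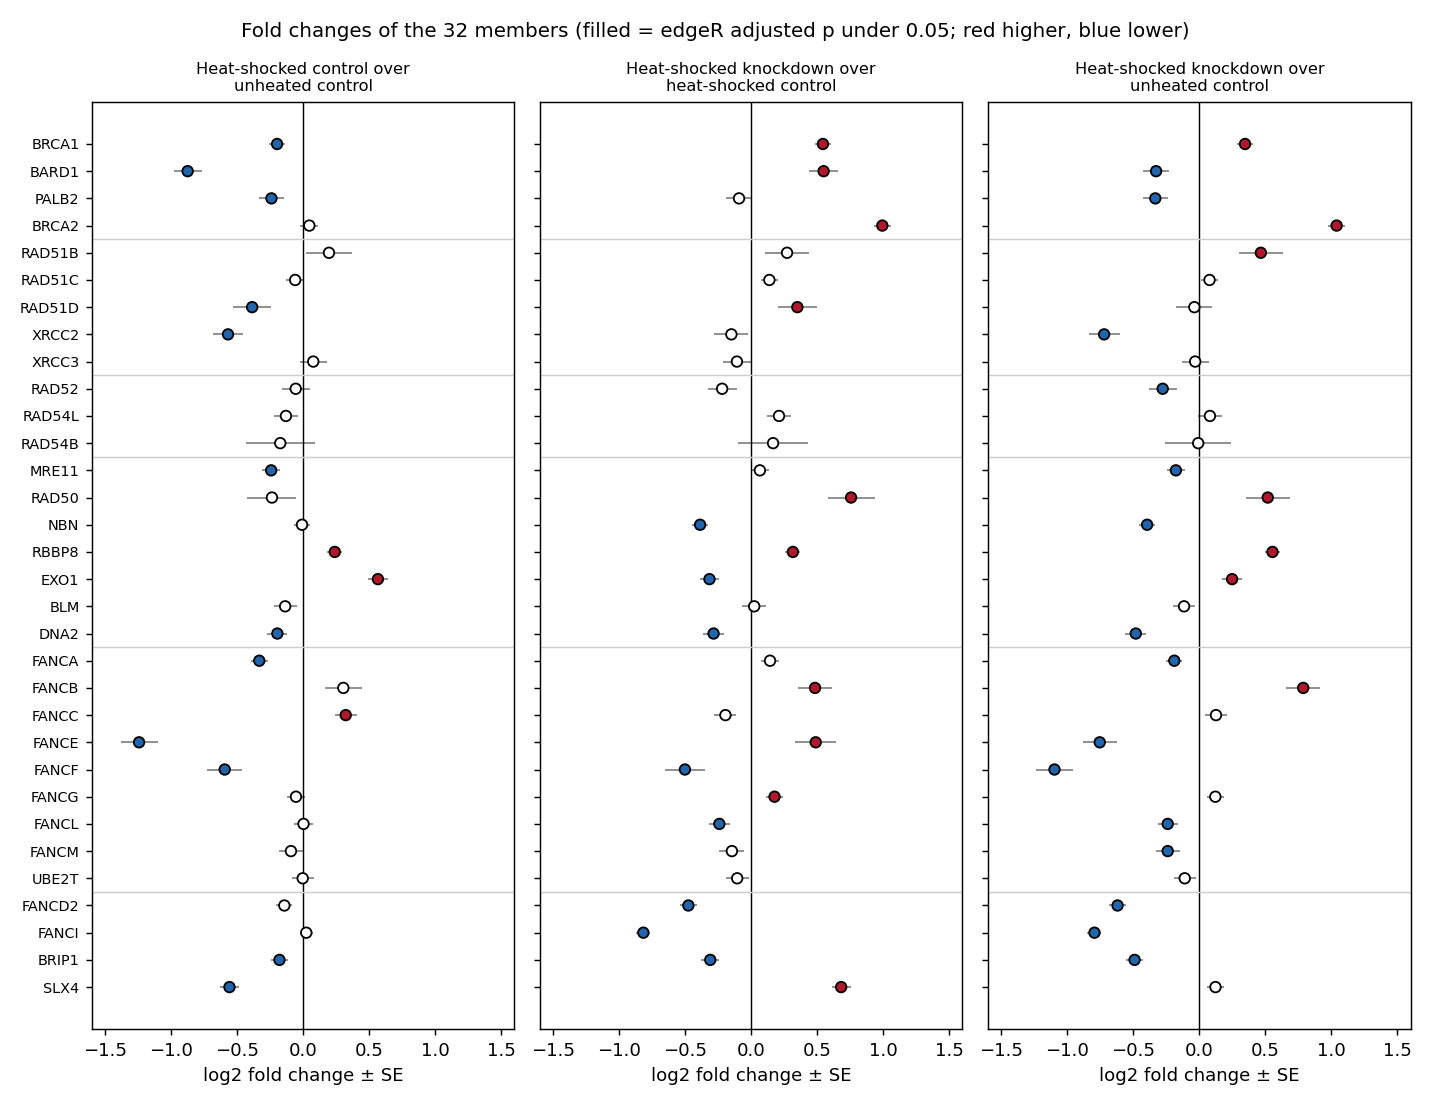
Log2 fold change ± SE (horizontal axis) of each of the 32 genes (vertical axis, grey lines part the 6 functional groups) in the 3 comparisons, with filled circles for genes at an edgeR adjusted p under 0.05, red higher and blue lower. FANCE at -1.24 is the farthest from 0 in heat shock, and BRCA2 at 0.99 and FANCI at -0.82 are the farthest in knockdown cells.

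**Figure D2:**
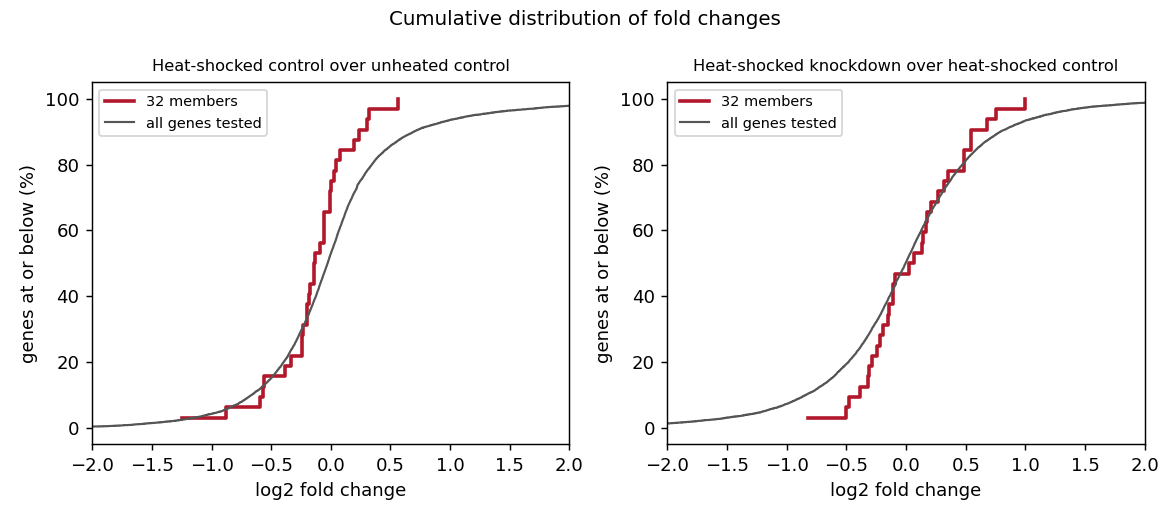
Percentage of genes (vertical axis) at or below each log2 fold change (horizontal axis) for the 32 genes (red) and all 17290 tested genes (grey) in heat shock and in knockdown. The median is -0.13 against -0.03 in heat shock and 0.04 against 0.00 in knockdown, and the 32 genes lack the long tails of the grey curve.

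The calls differed in how well they held. In heat shock 7 of the 15 called genes kept their call under all 14 alternatives tried (other scalings, filters and tests, a replicate block, and each library left out in turn): BARD1, XRCC2, FANCA, FANCE, FANCF and SLX4, all lower, and EXO1, higher. In knockdown cells 11 of 18 did so: BRCA1, BARD1, BRCA2, RAD50, RBBP8 and SLX4, all higher, and NBN, EXO1, FANCD2, FANCI and BRIP1, all lower. With the DESeq2 Wald test, the most sparing of the alternatives, 8 members were called in heat shock and 11 in knockdown cells. Over all genes that test called 4775 in heat shock and 6487 in knockdown cells, against 7592 and 9425 in the main fit. Scaling by library size alone moved the split over all genes in heat shock to 2932 rises and 5092 falls (36.5% rises), against 3559 and 4033 (46.9%). Among the members this scaling gave 3 rises and 13 falls.

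Promoter sequence was compared because several of these genes are known as targets of E2F factors, which drive genes of S phase. RefSeq promoter windows (GRCh38.p14, 250 bases before to 50 after the annotated start) were found for 28 of the 32 genes, 37 windows in all. The E2F-like octamer TTTCCCGC, on either strand, lay in 3 of the 37 windows (8.11%), those of FANCC, FANCD2 and XRCC2, against 1.63% of all 35116 windows. The other E2F-like octamer searched, TTTGGCGC, was in 0 member windows and in 0.652% of all windows. These 3 windows are printed because they hold this octamer. The windows run 5' to 3' along the gene's strand, with the octamer or its reverse complement GCGGGAAA in capitals.
FANCC (chr9:95317660-95317959, minus strand): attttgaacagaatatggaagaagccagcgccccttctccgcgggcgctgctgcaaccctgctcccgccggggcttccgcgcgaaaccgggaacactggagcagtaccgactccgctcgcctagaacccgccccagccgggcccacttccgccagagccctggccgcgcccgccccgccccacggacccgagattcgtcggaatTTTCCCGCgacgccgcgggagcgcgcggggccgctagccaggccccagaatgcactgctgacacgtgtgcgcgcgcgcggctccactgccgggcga
FANCD2 (chr3:10026187-10026486, plus strand): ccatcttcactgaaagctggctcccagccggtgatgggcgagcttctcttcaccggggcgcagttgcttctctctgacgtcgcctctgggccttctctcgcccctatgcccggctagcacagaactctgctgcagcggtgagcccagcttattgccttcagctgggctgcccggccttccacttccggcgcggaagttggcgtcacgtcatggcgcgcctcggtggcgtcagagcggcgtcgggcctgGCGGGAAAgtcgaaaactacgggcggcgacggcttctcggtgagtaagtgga
XRCC2 (chr7:152676092-152676391, minus strand): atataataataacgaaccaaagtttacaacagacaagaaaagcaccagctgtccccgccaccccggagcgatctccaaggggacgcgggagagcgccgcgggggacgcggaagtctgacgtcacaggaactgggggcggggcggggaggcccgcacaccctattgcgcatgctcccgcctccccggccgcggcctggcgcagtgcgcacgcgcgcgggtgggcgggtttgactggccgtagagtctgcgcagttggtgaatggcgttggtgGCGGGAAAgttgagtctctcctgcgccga
The octamer begins 46 bases before the annotated start in FANCC, 2 bases before it in FANCD2 and 21 bases after it in XRCC2. In heat shock FANCC was called higher (log2 fold change 0.32), XRCC2 lower (-0.57) and FANCD2 was not called (-0.14, adjusted p = 0.0628). In the knockdown FANCD2 was called lower (-0.48), and FANCC (-0.20, adjusted p = 0.0508) and XRCC2 (-0.15, adjusted p = 0.333) were not called. The NF-Y box CCAAT was in 32.4% of member windows and 34.6% of all windows, and the cell cycle motif TTTGAA in 8.11% and 15.2%. The heat shock element, inverted GAA repeats bound by heat shock factors, was in 0 of the 37 member windows and in 0.49% of all windows. Motifs were searched on both strands and can overlap, and a match or its absence describes only these letters in these windows.

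BRCA1, BARD1 and BRCA2 were higher in knockdown cells than in heated controls, and PALB2 was not called. BRCA2 (ENSG00000139618, chr13:32315077-32400268 on GRCh38.p14), which prepares the exposed strand for invasion, had 79.6 and 83.6 CPM in knockdown cells, 40.3 and 41.6 CPM in heated controls and 38.7 and 40.7 CPM in unheated controls. The control groups overlapped and both knockdown libraries stood near 2-fold above them (fold 1.99 against heated controls, log2 fold change 0.99 ± 0.06, adjusted p = 3.44e-12). Heat shock alone left BRCA2 without a call (0.05 ± 0.07, adjusted p = 0.621).
BRCA1 (ENSG00000012048, chr17:43044295-43170327), a ubiquitin ligase that organises repair at broken ends, had 80.9 and 88.9 CPM in knockdown cells, 59.8 and 56.8 CPM in heated controls and 67.1 and 66.6 CPM in unheated controls. The 3 groups did not overlap, with heated controls lowest and knockdown cells highest. It rose in knockdown cells (0.54 ± 0.06 on the log2 scale, adjusted p = 6.43e-08) and was slightly lower in heat shock (-0.20 ± 0.06, adjusted p = 0.0123). That heat shock call was lost without heated control replicate 2 (adjusted p = 0.113), without unheated control replicate 1 (0.0699) and with DESeq2 (0.133).
BARD1 (ENSG00000138376, chr2:214725646-214809683), the obligate partner of BRCA1 in the ligase, had 16.7 and 17.1 CPM in knockdown cells, 11.8 and 11.3 CPM in heated controls and 21.4 and 21.1 CPM in unheated controls. Its libraries separated by group, lowest in heated controls and highest in unheated ones. The log2 fold change was -0.88 ± 0.11 in heat shock (adjusted p = 2.88e-07) and 0.55 ± 0.11 in knockdown cells (adjusted p = 1.94e-04), so BARD1 fell further in heat than its partner did.
PALB2 (ENSG00000083093, chr16:23603165-23641310), the bridge between BRCA1 and BRCA2, had 17.9 and 20.0 CPM in knockdown cells, 20.6 and 19.9 CPM in heated controls and 25.4 and 22.4 CPM in unheated controls. Knockdown cells and heated controls overlapped (log2 fold change -0.09 ± 0.10, adjusted p = 0.459). The heat shock fold change was -0.24 ± 0.10 (adjusted p = 0.0488), a call that 10 of the 14 alternatives lost, among them those without heated control replicate 1 (adjusted p = 0.089) or 2 (0.195) and without unheated control replicate 1 (0.382).

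**Figure D3:**
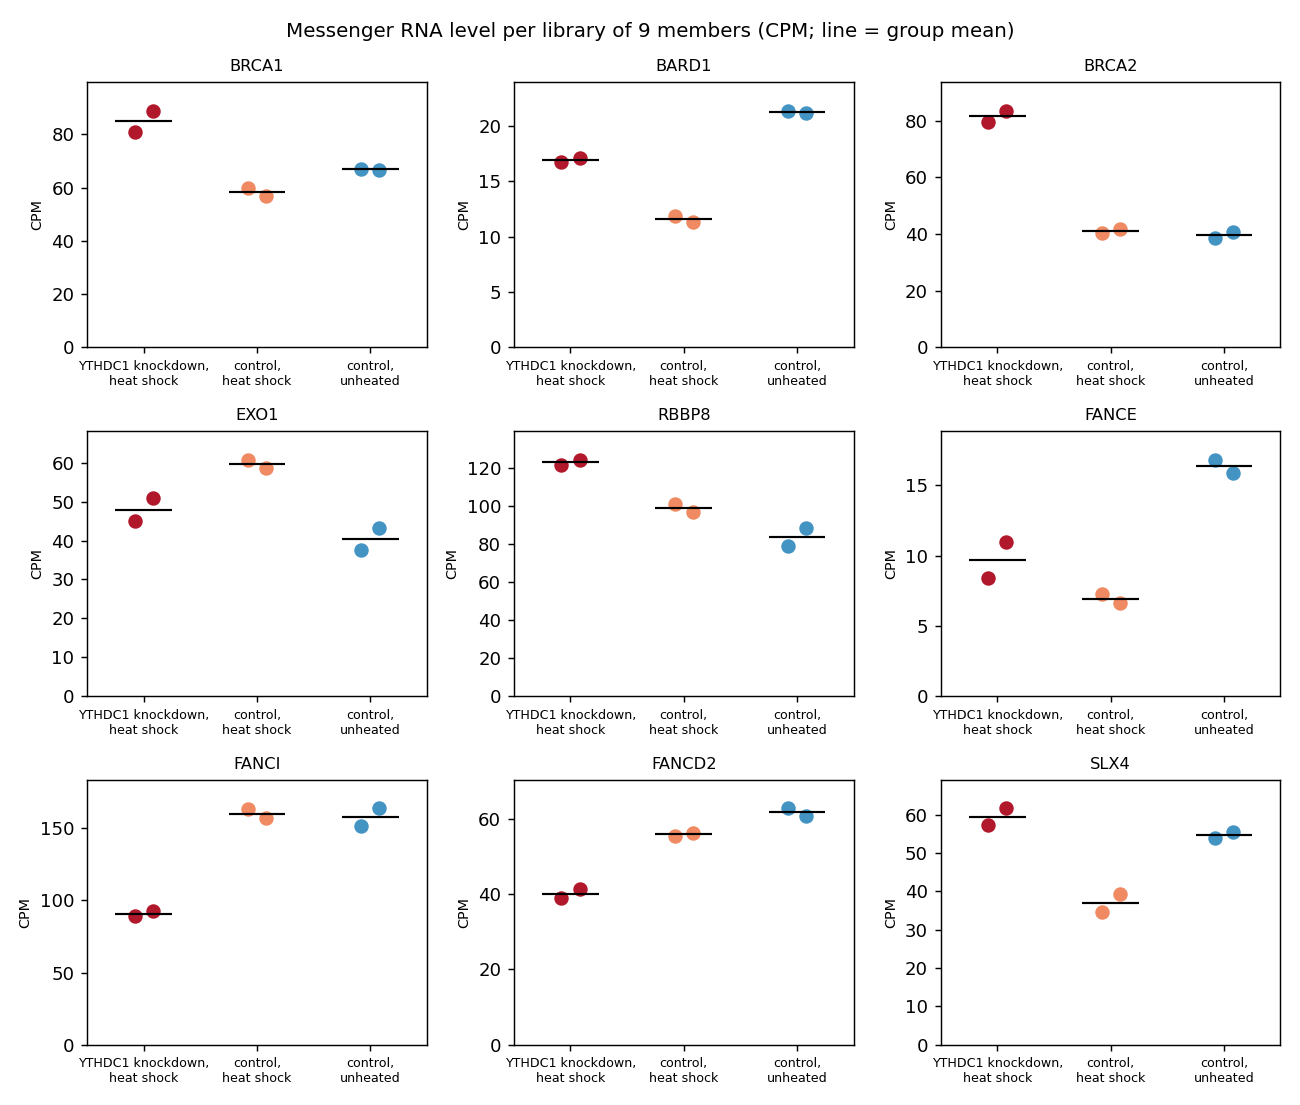
CPM (vertical axis, from 0) of 9 of the genes in each library, with knockdown cells (dark red), heated controls (orange) and unheated controls (blue) from left to right and a line at the group mean. BRCA2 is at 79.6 and 83.6 CPM in knockdown cells against 38.7 to 41.6 CPM in the controls, FANCI at 89.2 and 92.5 CPM against 151.5 to 163.8 CPM, and BARD1, FANCE and SLX4 are lowest in heated controls.

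The paralogs RAD51B, RAD51C, RAD51D, XRCC2 and XRCC3 form small complexes that act on the exposed strand before it invades. Of the 5, 2 fell in heat shock (40.0%, against 23.3% of all tested genes) and 1 rose in the knockdown (20.0%, against 27.4%). XRCC2 (ENSG00000196584, chr7:152644776-152676141), whose promoter is printed above, had 10.4 and 10.5 CPM in knockdown cells, 12.1 and 11.2 CPM in heated controls and 16.1 and 18.4 CPM in unheated controls. All 4 heated libraries lay below the unheated ones, and XRCC2 fell with heat (log2 fold change -0.57 ± 0.12, adjusted p = 3.24e-04) without a call in the knockdown (-0.15 ± 0.13, adjusted p = 0.333).
RAD51D (ENSG00000185379, chr17:35092221-35119860) had 10.8 and 8.91 CPM in knockdown cells, 7.54 and 7.88 CPM in heated controls and 9.40 and 10.8 CPM in unheated controls. Its calls in heat shock (-0.39 ± 0.15, adjusted p = 0.0334) and knockdown (0.35 ± 0.15, adjusted p = 0.0489) were both weak. The heat shock call was lost without heated control replicate 1 (adjusted p = 0.133) or 2 (0.0814), without unheated control replicate 2 (0.238) and with DESeq2 (0.264). In the knockdown 12 of 14 alternatives lost it, with adjusted p between 0.051 and 0.359, the highest without knockdown replicate 1, and also without heated control replicate 1 (0.171) or 2 (0.109) and without unheated control replicate 1 or 2 (0.0621 each).
RAD51C (ENSG00000108384, chr17:58692573-58735611), shared by more than 1 paralog complex, had 60.2 and 67.2 CPM in knockdown cells, 57.6 and 58.2 CPM in heated controls and 62.6 and 58.1 CPM in unheated controls. It was called in neither heat shock (-0.06 ± 0.07, adjusted p = 0.487) nor knockdown (0.14 ± 0.07, adjusted p = 0.0833), and it was called higher in the knockdown only without knockdown replicate 1 among the alternatives (0.21, adjusted p = 0.00949).
RAD54L (ENSG00000085999, chr1:46247688-46278473), a motor of strand exchange, had 29.1 and 32.01 CPM in knockdown cells, 23.8 and 28.9 CPM in heated controls and 29.2 and 28.7 CPM in unheated controls. The heated controls spread widely and the gene was not called in heat shock (-0.13 ± 0.09, adjusted p = 0.264) or knockdown (0.21 ± 0.09, adjusted p = 0.0575). Without heated control replicate 2 it was called lower in heat shock (-0.28, adjusted p = 0.0472) and higher in the knockdown (0.35, adjusted p = 0.00935), and without knockdown replicate 1 it was also called higher in the knockdown (0.27, adjusted p = 0.0208). The knockdown call also appeared with library size alone (adjusted p = 0.0425) and with the replicate block (0.0491). RAD52, which anneals strands, RAD54B, a relative of RAD54L, and the paralogs RAD51B and XRCC3 were not called in heat shock or in knockdown, although RAD52 was called lower in the knockdown without knockdown replicate 2 (adjusted p = 0.0341).

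The 7 genes of end resection, the trimming of a broken end, had calls in each direction in both comparisons: 2 rose and 2 fell in heat shock (28.6% each, against 20.6% and 23.3% of all tested genes), and 2 rose and 3 fell in the knockdown (28.6% and 42.9%, against 27.4% and 27.2%). With so few genes these shares are imprecise, and no difference from all genes is read from them. EXO1 (ENSG00000174371, chr1:241847986-241889939), an exonuclease that lengthens the exposed strand, had 45.0 and 50.9 CPM in knockdown cells, 60.8 and 58.7 CPM in heated controls and 37.5 and 43.2 CPM in unheated controls. Heated controls were highest, with knockdown cells between the control groups. Heat raised EXO1 (0.57 ± 0.08, adjusted p = 1.14e-06) and was lower in the knockdown (-0.32 ± 0.07, adjusted p = 8.43e-04).
RBBP8 (ENSG00000101773, chr18:22914139-23026486) encodes CtIP, which starts resection with the MRE11 nuclease. It had 121.9 and 124.6 CPM in knockdown cells, 101.1 and 97.1 CPM in heated controls and 79.3 and 88.7 CPM in unheated controls. The groups stepped upward without overlap, by 0.24 ± 0.06 in heat shock (adjusted p = 0.00146) and a further 0.32 ± 0.06 in the knockdown (unrounded 0.315, adjusted p = 3.99e-05). The heat shock call was lost without unheated control replicate 1 (0.16, adjusted p = 0.1).
MRE11, RAD50 and NBN form the complex that first senses and trims the end, and they moved apart. NBN (ENSG00000104320, chr8:89933331-89984667), its regulatory subunit, had 68.7 and 61.5 CPM in knockdown cells, 86.5 and 83.9 CPM in heated controls and 85.8 and 85.4 CPM in unheated controls. Only the knockdown libraries stood apart (-0.39 ± 0.06, adjusted p = 7.17e-06), with no call in heat shock (-0.01 ± 0.06, adjusted p = 0.919).
RAD50 (ENSG00000113522, chr5:132556977-132646349), the ATPase of the complex, had 7.88 and 6.54 CPM in knockdown cells, 4.08 and 4.44 CPM in heated controls and 4.86 and 5.20 CPM in unheated controls. It was higher in the knockdown (0.76 ± 0.18, adjusted p = 9.13e-04) and not called in heat shock (-0.24 ± 0.19, adjusted p = 0.323). These levels rest on 112 and 94 reads in knockdown cells, 53 and 62 in heated controls and 77 and 81 in unheated controls. Per kilobase of gene model RAD50 averaged 0.521 CPM over the 6 libraries, against 6.14 for MRE11 and 4.05 for NBN, and the reason for this low count was not tested.
MRE11 (ENSG00000020922, chr11:94415570-94512412), the nuclease, had 45.2 and 46.3 CPM in knockdown cells, 41.7 and 45.7 CPM in heated controls and 51.7 and 51.9 CPM in unheated controls. It was lower in heat shock (-0.24 ± 0.07, adjusted p = 0.00471) and not called in the knockdown (0.07 ± 0.07, unrounded 0.065, adjusted p = 0.445). The heat shock call was lost without heated control replicate 1 (adjusted p = 0.0871) and with DESeq2 (0.0941). DNA2, a helicase and nuclease that extends resection, was at -0.20 ± 0.08 in heat shock, a call that 8 of 14 alternatives lost (adjusted p from 0.0544 to 0.305), among them each omission of a heated or unheated control library (from 0.096 to 0.171). In the knockdown DNA2 fell (-0.29 ± 0.08, adjusted p = 0.00443), a call lost with DESeq2 alone among the alternatives (0.0664). BLM, the helicase that works beside it, was called in neither.

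The 9 genes of the Fanconi core complex and its conjugating enzyme held the largest fall in heat shock. FANCE (ENSG00000112039, chr6:35452338-35467102), which links the core to FANCD2, had 8.37 and 10.99 CPM in knockdown cells, 7.23 and 6.59 CPM in heated controls and 16.8 and 15.9 CPM in unheated controls. Every heated library was well below the unheated ones, and heat left 42.2% of the unheated level (log2 fold change -1.24 ± 0.14, adjusted p = 9.82e-08). The knockdown value was higher than that of heated controls (0.49 ± 0.15, adjusted p = 0.0097), but the call was lost without knockdown replicate 2 (0.28, adjusted p = 0.202), without heated control replicate 2 (0.0772) and with DESeq2 (0.0951).
FANCF (ENSG00000183161, chr11:22622533-22625823), an adaptor of the core, had 6.47 and 5.78 CPM in knockdown cells, 8.38 and 8.96 CPM in heated controls and 12.6 and 13.7 CPM in unheated controls. The groups stepped downward without overlap, by -0.60 ± 0.13 in heat shock (unrounded -0.595, adjusted p = 6.20e-04) and -0.50 ± 0.15 in the knockdown (adjusted p = 0.00676). The knockdown call was lost without knockdown replicate 2 (adjusted p = 0.0549) and with DESeq2 (0.0892).
FANCA (ENSG00000187741, chr16:89737549-89816647), a large subunit of the core, had 50.7 and 52.9 CPM in knockdown cells, 47.6 and 46.2 CPM in heated controls and 58.4 and 59.8 CPM in unheated controls. It fell with heat (-0.33 ± 0.06, adjusted p = 1.32e-04) and was not called in the knockdown (0.14 ± 0.07, adjusted p = 0.0671), except with library size alone (0.0458).
FANCC (ENSG00000158169, chr9:95099054-95317709), a core subunit that pairs with FANCE and FANCF, had 25.4 and 25.3 CPM in knockdown cells, 28.8 and 29.3 CPM in heated controls and 23.2 and 23.3 CPM in unheated controls. It moved opposite to both partners in heat shock (0.32 ± 0.08, adjusted p = 0.00277), a call lost with DESeq2 alone (0.0614). In the knockdown it missed the threshold (-0.20 ± 0.08, adjusted p = 0.0508) and was called with RLE size factors (0.0451), limma voom (0.0482) and without robust estimation (0.048).
FANCB (ENSG00000181544, chrX:14689524-14873069), a scaffold of the core, had 16.3 and 13.6 CPM in knockdown cells, 11.2 and 10.3 CPM in heated controls and 8.96 and 8.35 CPM in unheated controls. Its groups stepped upward without overlap, with a call in the knockdown (0.48 ± 0.13, adjusted p = 0.00276) and none in heat shock (0.30 ± 0.14, adjusted p = 0.0792). The knockdown call was lost without knockdown replicate 1 (adjusted p = 0.0596) and with DESeq2 (0.0645), and a heat shock call appeared in the fit of the 2 groups alone (0.0375).
FANCL (ENSG00000115392, chr2:58159243-58241380), the ubiquitin ligase subunit, had 30.5 and 30.6 CPM in knockdown cells, 37.2 and 35.1 CPM in heated controls and 35.6 and 36.6 CPM in unheated controls. Both knockdown libraries lay below all 4 control libraries (-0.24 ± 0.08, adjusted p = 0.0101), and heat shock gave no difference past its error (0.00 ± 0.07, unrounded 0.002, adjusted p = 0.985). The knockdown call was lost without heated control replicate 1 (adjusted p = 0.089) and with DESeq2 (0.111). FANCG, a core subunit bound to FANCA, rose by 0.18 ± 0.07 in the knockdown (adjusted p = 0.0304), a call lost with DESeq2 (0.228), with no filter (0.0621) and without heated control replicate 1 (0.0907) or 2 (0.129) or knockdown replicate 1 (0.0527) or 2 (0.0614). FANCM, a DNA translocase, and UBE2T, the conjugating enzyme, were not called in heat shock or knockdown, though UBE2T was called lower without knockdown replicate 2 (-0.26, adjusted p = 0.0122).

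FANCD2 and FANCI, the pair that the core ubiquitinates, fell together in the knockdown. FANCI (ENSG00000140525, chr15:89243979-89317259) had 89.2 and 92.5 CPM in knockdown cells, 163.4 and 157.0 CPM in heated controls and 151.5 and 163.8 CPM in unheated controls. The control groups overlapped, and the knockdown left 56.7% of the level of heated controls (log2 fold change -0.82 ± 0.05, adjusted p = 4.69e-12). Heat shock gave 0.02 ± 0.05 (adjusted p = 0.742).
FANCD2 (ENSG00000144554, chr3:10026437-10101932), whose promoter is printed above, had 39.1 and 41.3 CPM in knockdown cells, 55.5 and 56.3 CPM in heated controls and 62.8 and 60.7 CPM in unheated controls. Knockdown cells were lowest (-0.48 ± 0.07, adjusted p = 1.43e-06), and the heat shock difference of -0.14 ± 0.06 missed the threshold (adjusted p = 0.0628). It was called in heat shock when scaled by library size only (-0.21, adjusted p = 0.00629), and also without knockdown replicate 1 (0.0342) or 2 (0.0348).
BRIP1 (ENSG00000136492, chr17:61679139-61863528), a helicase that binds BRCA1, had 35.9 and 36.5 CPM in knockdown cells, 44.8 and 45.0 CPM in heated controls and 52.1 and 49.7 CPM in unheated controls. The groups stepped downward without overlap. The knockdown call (-0.31 ± 0.07, adjusted p = 5.58e-04) held throughout, whereas that in heat shock (-0.18 ± 0.07, adjusted p = 0.0293) was lost without heated control replicate 1 (0.0993) or 2 (0.103), without unheated control replicate 1 (0.214) or 2 (0.0507) and with DESeq2 (0.273).
SLX4 (ENSG00000188827, chr16:3581181-3611606), the scaffold of nucleases that cut at crosslinks, went the other way. It had 57.3 and 61.7 CPM in knockdown cells, 34.7 and 39.4 CPM in heated controls and 53.9 and 55.4 CPM in unheated controls. Heated controls stood below both other groups, with -0.56 ± 0.07 in heat shock (adjusted p = 7.36e-07) and 0.68 ± 0.07 in the knockdown (adjusted p = 2.17e-08).

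**Figure D4:**
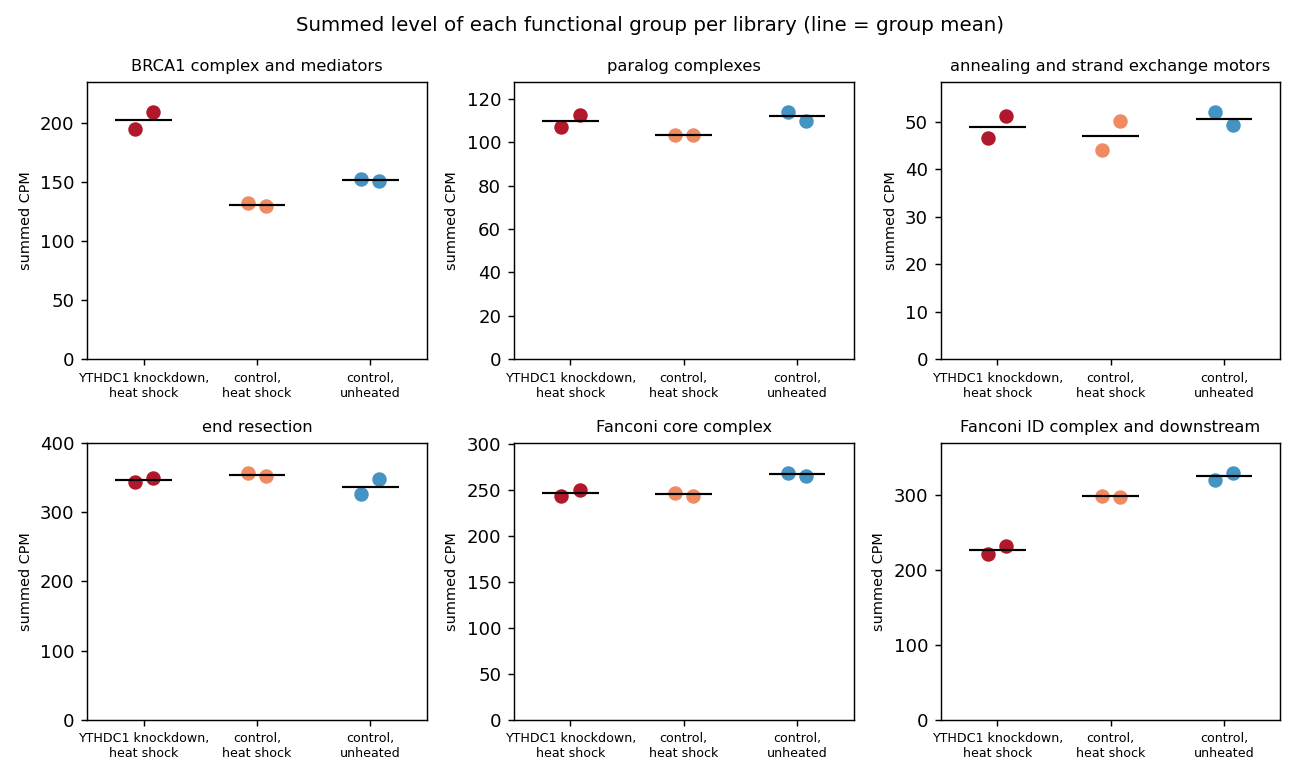
Summed CPM (vertical axis, from 0) of each of the 6 functional groups in each library, with knockdown cells, heated controls and unheated controls from left to right and a line at the group mean. The group of BRCA1, BARD1, PALB2 and BRCA2 sums to 195.2 and 209.6 CPM in knockdown cells against 132.5 and 129.7 CPM in heated controls, and that of FANCD2, FANCI, BRIP1 and SLX4 to 221.5 and 232.0 CPM against 298.5 and 297.7 CPM. Each sum follows its most abundant genes, and SLX4 alone rose within the latter group.

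The summed levels put the opposed movements side by side. BRCA1, BARD1, PALB2 and BRCA2 together reached 195.2 and 209.6 CPM in knockdown cells, 132.5 and 129.7 CPM in heated controls and 152.4 and 150.9 CPM in unheated controls. FANCD2, FANCI, BRIP1 and SLX4 together reached 221.5 and 232.0 CPM in knockdown cells, 298.5 and 297.7 CPM in heated controls and 320.3 and 329.6 CPM in unheated controls. The 5 paralogs, by contrast, stayed between 103.1 and 113.9 CPM in all 6 libraries, and the 7 resection genes between 326.5 and 357.3 CPM. In such sums the most abundant genes weigh most. RAD51C averaged 60.7 CPM over the 6 libraries, against 13.1 CPM for XRCC2, which fell with heat. FANCI averaged 160.2 CPM in heated controls and 90.9 CPM in knockdown cells, while SLX4 rose from 37.05 to 59.5 CPM. The resection sum likewise holds the opposed knockdown calls of RBBP8 and NBN. All 32 genes summed to 1157 and 1206 CPM in knockdown cells, 1183 and 1177 CPM in heated controls and 1234 and 1253 CPM in unheated controls. In bulk RNA, fewer cells that express a gene and less of its RNA per cell cannot be told apart.

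Knockdown cells were also set against unheated controls, a comparison that joins heat shock and knockdown and shares libraries with both of the others. Of the 32 genes 7 were higher, 15 lower and 10 not called, where 31.1% of all tested genes were called in each direction and 62.2% in either. BRCA2 was 2.06-fold higher (log2 fold change 1.04 ± 0.06, adjusted p = 5.85e-13) and FANCF fell to 46.7% of the unheated level (-1.10 ± 0.14, adjusted p = 2.29e-07). These were the members past 2-fold, where 9.45% of all genes were at least 2-fold higher and 8.99% at least 2-fold lower. FANCI was at -0.80 (unrounded -0.795), FANCE at -0.76 (unrounded -0.755), XRCC2 at -0.72, FANCD2 at -0.62, BRIP1 at -0.49, DNA2 at -0.48 and NBN at -0.40, all called lower under all 14 alternatives. FANCB at 0.79, RBBP8 at 0.55 and BRCA1 at 0.35 were called higher under all 14. SLX4 was not called (0.12 ± 0.07, adjusted p = 0.117), and was called higher only without knockdown replicate 1 (0.17, adjusted p = 0.0473). The other 10 calls were each lost under DESeq2, and for BARD1 under no other alternative. Without unheated control replicate 1 the calls of PALB2 (adjusted p = 0.0943), RAD51B (0.068), RAD52 (0.183), MRE11 (0.0771), RAD50 (0.0784) and EXO1 (0.206) were lost. Without unheated control replicate 2 those of RAD51B (0.0846), MRE11 (0.0759), FANCA (0.0634), FANCL (0.0524) and FANCM (0.179) were. Without knockdown replicate 1 those of RAD52 (0.199), MRE11 (0.0622) and RAD50 (0.128) were lost, and without knockdown replicate 2 those of RAD51B (0.127), EXO1 (0.0984) and FANCM (0.207). UBE2T was called lower without knockdown replicate 2 (0.00767).

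Further genes of the same pathways were taken from 2 longer lists. Of 39 other homologous recombination genes tested 17 fell and 4 rose in heat shock (43.6% and 10.3%, against 23.3% and 20.6% of all tested genes, median -0.20), and 14 rose and 10 fell in the knockdown (35.9% and 25.6%, against 27.4% and 27.2%, median 0.03).
MMS22L, which promotes recombination at stalled forks, had 14.6 and 16.6 CPM in knockdown cells, 31.0 and 30.8 CPM in heated controls and 23.1 and 22.7 CPM in unheated controls. It rose with heat (0.43 ± 0.09, adjusted p = 2.48e-04) and was lower in the knockdown (-0.99 ± 0.09, adjusted p = 3.91e-09). HROB, a partner of the MCM8 and MCM9 helicase, had the largest fall in heat shock among the genes of that list at 5 CPM or more (-1.22 ± 0.17, adjusted p = 2.46e-06), followed by the nuclease subunit EME2 (-0.83 ± 0.11, adjusted p = 1.21e-06). UIMC1, which brings BRCA1 to ubiquitin near breaks, had the largest rise among them in the knockdown (0.95 ± 0.07, adjusted p = 1.13e-11), with 73.0 and 71.7 CPM in knockdown cells, 38.7 and 36.2 CPM in heated controls and 44.8 and 45.7 CPM in unheated controls. SFR1, an accessory factor of strand exchange, followed at 0.89 ± 0.15 (adjusted p = 1.54e-05).
Of 18 other Fanconi anaemia genes 4 rose and 6 fell in heat shock (22.2% and 33.3%, against 20.6% and 23.3% of all tested genes, median -0.02), and 8 rose and 6 fell in the knockdown (44.4% and 33.3%, against 27.4% and 27.2%, median -0.03). DCLRE1B, the nuclease Apollo, had 84.1 and 86.5 CPM in knockdown cells, 81.8 and 81.6 CPM in heated controls and 41.9 and 40.7 CPM in unheated controls, nearly 2-fold higher in each heated group (heat shock log2 fold change 0.98 ± 0.06, adjusted p = 1.54e-12). SLX4IP, a partner of SLX4, rose in heat by 0.92 ± 0.11 (adjusted p = 2.03e-07), while SLX4 itself fell. FAAP100, a core complex partner of FANCB and FANCL, fell in heat by 0.91 ± 0.09 on the log2 scale (adjusted p = 8.88e-09), and the ligase RFWD3 by 0.49 ± 0.06 (adjusted p = 2.69e-07). In the knockdown REV3L, the catalytic subunit of a bypass polymerase, rose by 0.51 ± 0.06 (adjusted p = 1.29e-07) and REV1 by 0.30 ± 0.06 (adjusted p = 2.72e-04). WDR48, which activates the enzyme that removes ubiquitin from FANCD2, was at -0.46 ± 0.06 (adjusted p = 1.32e-06) and DCLRE1A at -0.42 ± 0.10 (adjusted p = 7.29e-04).

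Many of these genes are expressed mainly in S and G2 phase, so markers of the cell cycle are given beside them. In heat shock 20 of 30 G1/S genes fell and 4 rose (median -0.27), and 22 of 28 tested G2/M genes fell and 1 rose (median -0.43). In the knockdown 8 G1/S genes rose and 9 fell (26.7% and 30.0%, median 0.04), near the 27.4% and 27.2% of all tested genes. There 21 G2/M genes rose and 3 fell (75.0% and 10.7%, median 0.42). The 29 G2/M genes in the table summed to 5465 and 6000 CPM in knockdown cells, 4473 and 4382 CPM in heated controls and 5830 and 5703 CPM in unheated controls. The 30 G1/S genes summed to 2827 and 3013 CPM in knockdown cells, 2843 and 2827 CPM in heated controls and 3421 and 3439 CPM in unheated controls. BRCA1, BARD1 and SLX4 were lowest in heated controls, as was the G2/M sum, and so were FANCA, FANCE and RAD50 among others. Between knockdown cells and unheated controls SLX4 was not called (0.12 ± 0.07, adjusted p = 0.117). BARD1 was highest in unheated controls and BRCA1 in knockdown cells. FANCI and FANCD2 were lowest in knockdown cells, as were NBN, BRIP1, DNA2 and FANCF among others. Within the lists PCNA, the replication clamp, was at -1.34 ± 0.05 in heat shock and -1.83 ± 0.07 in the knockdown, while RRM2, a subunit of ribonucleotide reductase, rose by 1.06 ± 0.05 in the knockdown. Among 19 genes for E2F, retinoblastoma and DREAM complex proteins 7 fell and 4 rose in heat shock (36.8% and 21.1%, against 23.3% and 20.6% of all tested genes). In the knockdown 7 of them rose and 4 fell (36.8% and 21.1%, against 27.4% and 27.2%). Among those at 5 CPM or more the largest rises in the knockdown were RBL1, a retinoblastoma family repressor, at 1.201 ± 0.08 and MYBL2 at 0.73 ± 0.05. The 7 elongation and 3' end factors include CDK12, whose loss is known to lower long repair genes. CDK12 itself was called in neither heat shock nor knockdown. Of the 7, 4 rose and 1 fell in heat shock (57.1% and 14.3%, against 20.6% and 23.3% of all tested genes). In the knockdown 1 rose and 4 fell (14.3% and 57.1%, against 27.4% and 27.2%). PCF11 was at 0.70 ± 0.06 in heat shock and -0.29 ± 0.06 (unrounded -0.285) in the knockdown. The part of the cell cycle or of these regulators in the members' changes was not tested.

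Gene size and neighbours were compared as well. Across the 32 genes, which span from 3.29 kb for FANCF to 863.3 kb for RAD51B, Pearson's r between log10 span and log2 fold change was 0.39 in heat shock (Spearman's rho 0.30) and 0.15 in the knockdown (rho 0.16), against 0.05 and 0.04 over 13461 protein-coding genes. These points share the same 6 libraries and genes are not replicates, so the values only describe these genes. A total of 21 of the 32 overlap the span of another annotated gene, and for 11 of them such a gene held at least 10% of the member's own counts. Spans include introns, and whether the exons of a pair overlap was not examined. Because the strand setting of the counting is not given, reads from any shared exons of pairs on opposite strands could not be told apart with certainty. For a pair on the same strand no strand setting could part reads from shared exons, if there are any. POLG, on the opposite strand, held 47.0% of the counts of FANCI and was at -0.34 in the knockdown, against -0.82 for FANCI. VRK2 held 169% of the counts of FANCL and was at 0.28 in the knockdown, the opposite sign to FANCL. ZNF276 held 56.8% of the counts of FANCA and was at -0.54 in heat shock, against -0.33 for FANCA, and AOPEP held 53.4% of those of FANCC and was at 0.48, against 0.32 for FANCC. ANKRD49 held 26.1% of the counts of MRE11 and was at -0.17 in heat shock (adjusted p = 0.281). ERC1 held 947% of those of RAD52 and was at -0.42 in the knockdown (adjusted p = 5.62e-08), against -0.22 for RAD52. LRRC41 held 211% of those of RAD54L and was at -0.35 in heat shock. A gene with no symbol (ENSG00000267002), on the same strand as BRCA1, held 25.3% of the counts of BRCA1. It moved in the opposite direction to BRCA1 in both comparisons, at 0.53 in heat shock and -0.36 in the knockdown. KLC1 held 87.3% of the counts of XRCC3 and ENSG00000287385 15.9% of those of RAD51B. FSBP, on the same strand, held 25.3% of those of RAD54B. BRCA2, BARD1, EXO1, RBBP8, FANCE, FANCF, FANCD2 and SLX4 had no overlapping gene with as much as 10% of their counts.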

How the data were processed

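The authors deposited raw counts of reads per gene for 6 RNA-seq libraries, and the gene model length per the file headers, which was used only for levels per kilobase. Libraries were prepared from TRIzol-extracted RNA (VAHTS Universal V8 kit, per the labels' protocols). Per the submitters' processing notes, the tools of the series include Trim Galore 0.6.7, HISAT2 2.2.1 and featureCounts 2.0.2, on GRCh38; for annotation, strand setting and ambiguous reads the choice is not given in the sources used. Symbols were paired for 62666 of 63187 identifiers; the other 521 held at most 0.0698% of counts in a library. All 6 libraries entered 1 fit in edgeR 4.0.16 (quasi-likelihood, robust, TMM scaling, low counts filtered by filterByExpr at 10) under R 4.3.3, leaving 3 residual degrees of freedom and Benjamini-Hochberg adjustment over 17290 genes. The test was checked on simulated counts. Replicates differed by more than sampling noise (chi-square per gene 1.52 to 3.41), so none was counted as a copy. The members and lists were chosen with earlier results of these data known. Values in every library are given for 15 fixed members and for each member called with an absolute log2 fold change of at least 0.3 in heat shock or knockdown, 23 in all; list genes are named as the 2 largest called rises or falls of their list at 5 CPM or more. DESeq2 1.42.0 and limma 3.58.1 served as alternatives. RefSeq gave positions, promoters and spans. No per-sample column was left unused. Some genes are not reported here.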

Additional observations from a re-analysis of the deposited data

How the results depend on the processing

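All 14 alternatives were run and 0 reversed a member's direction among called values. DESeq2 made fewer calls than edgeR: 4775 genes against 7592 in heat shock, and 8, 11 and 12 members against 15, 18 and 22 in heat shock, in knockdown, and in knockdown against unheated controls. No other alternative moved any of these counts by over 1.5 times. Leaving out each library gave 10 to 16 members in heat shock, 15 to 17 in knockdown and 16 to 22 in knockdown against unheated controls. Over the members 89 alternative results lost a call and 18 gained one. With the replicate block the counts were 14, 18 and 22 members (7494, 9372 and 10684 genes). Deviations of same-numbered libraries correlated at -0.023 to 0.014. With 2 libraries per group these values cannot decide whether the numbers pair the libraries. Depth limits the least expressed genes: RAD54B averaged 2.54 CPM, with an SE of 0.26 in heat shock. Where a call was lost, the cause was not tested.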

Other observations

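SWI5, the partner of SFR1 in a complex that assists strand exchange, had 34.1 and 32.5 CPM in knockdown cells, 19.3 and 20.6 CPM in heated controls and 15.96 and 15.9 CPM in unheated controls, the largest rise against unheated controls among the other homologous recombination genes at 5 CPM or more (log2 fold change 1.06 ± 0.09, edgeR adjusted p = 2.71e-10). SFR1 had 10.5 and 10.4 CPM in knockdown cells, 5.61 and 5.66 CPM in heated controls and 9.84 and 9.77 CPM in unheated controls. Both were therefore higher in knockdown cells than in heated controls. BABAM2, which belongs with UIMC1 to the complex that holds BRCA1 at ubiquitin, was 0.70 higher in the knockdown (adjusted p = 6.50e-08) and 0.78 higher against unheated controls (adjusted p = 5.54e-09). Of the other subunits of that complex, ABRAXAS1 was 0.57 higher in the knockdown (adjusted p = 2.24e-05). BRCC3 was at -0.10 in the knockdown (adjusted p = 0.222) and was lower against unheated controls (-0.40, adjusted p = 1.07e-05). BABAM1 was called in neither of these comparisons (0.28, adjusted p = 0.174, and 0.01, adjusted p = 0.952). FAAP24, the partner of FANCM, averaged under 5 CPM and was 1.01 higher in the knockdown (adjusted p = 2.31e-04) while FANCM was at -0.15 (adjusted p = 0.201). FAAP24 was called lower in heat shock (-0.59, adjusted p = 0.0295), a call that 5 of the 14 alternatives lost. These were DESeq2 (0.221), limma voom (0.0549) and the fits without heated control replicate 1 or 2 or without unheated control replicate 1. Its log2 fold change ran from -0.82 to -0.32 over the 14. FAAP24, ABRAXAS1, BRCC3, BABAM1 and the values of BABAM2 and SFR1 given here were picked after the values were seen.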
